A study of Mus musculus with 2 samples.

Results

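Leiomodin 1 (Lmod1), synaptopodin 2 (Synpo2) and the myosin phosphatase subunit gene Ppp1r12a read higher in mesoangioblast clone D351 than in clone D16. The smooth muscle actin gene Acta2 also read higher in D351, but at low intensity in both clones. Filamin C (Flnc) and transgelin 2 (Tagln2) read lower in D351, by differences that fell under 2-fold with another scaling of the arrays. All belong to a set of 10 mouse genes chosen for known roles in smooth muscle actin filaments and contraction. Cnn2, Csrp1, Dstn and Filip1l complete the set. Every probe set to which the platform annotation gives 1 gene of this set was taken, which gave 12 probe sets among the 7717 single-gene probe sets of the array, and 10 genes among 5928. Synpo2 had 3 probe sets and the other 9 genes had 1 each.

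Mesoangioblasts are vessel-associated mesodermal progenitors that can be grown from the embryonic dorsal aorta. D351 and D16 are a pair of clones from C57BL6 embryos of day 9.5, each grown from single explant cells at limiting dilution over mitomycin C-treated embryonic fibroblasts and then passed on gelatin, in RPMI with 20% fetal calf serum. The labels name no treatment or genotype that sets D351 apart from D16, and each stands for a single clone. Total RNA of each clone was read on 1 oligonucleotide array (Affymetrix murine U74, array C), so the differences below stand without replicates and none was tested.

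In smooth muscle, thin filaments of actin slide past myosin, and both ends of the system are regulated. Filaments are nucleated, cut and cross-linked by actin-binding proteins and anchored at dense bodies, which take the place of the Z-discs of striated muscle. Force depends on phosphorylation of the myosin light chain, which the myosin light chain kinase adds and the myosin phosphatase removes. Many genes of the contractile programme carry CArG boxes, the DNA element bound by serum response factor, close to their start, and several also carry the MCAT element bound by TEAD factors.

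The upstream sequences of the set are shown because these elements are the textbook link between its genes. RefSeq starts of build GRCm38.p6 were found for all 10 genes, with 13 windows of 250 bases upstream of the start, since Csrp1, Flnc and Filip1l have 2 starts each. A CArG box is a pair of C, then 6 bases that are A or T, then a pair of G, and it reads the same on both strands. It was found upstream of Cnn2 and Filip1l, in 2 of the 13 windows, against 1.47% of the 32851 windows in the RefSeq table. The same 10 letters occurred in both, shown in capitals within 30 bases.

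Cnn2, chr10:79988534-79988563, plus strand: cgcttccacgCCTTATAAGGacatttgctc
Filip1l, chr16:57549170-57549199, plus strand: atgccgcgcgCCTTATAAGGctgagcggtg

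A stretch that departs from the CArG box at 1 base, called CArG-like here, lay upstream of Lmod1, Acta2, Dstn and Flnc (4 of 13 windows, against 17.5% of all windows). Lmod1 and Acta2 each held 2 of them. The windows of Lmod1 and Acta2, which read higher in D351, and of Flnc, which read lower, are shown in full so that the stretches can be compared, with the CArG-like bases in capitals.

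Lmod1, chr1:135324563-135324812, plus strand: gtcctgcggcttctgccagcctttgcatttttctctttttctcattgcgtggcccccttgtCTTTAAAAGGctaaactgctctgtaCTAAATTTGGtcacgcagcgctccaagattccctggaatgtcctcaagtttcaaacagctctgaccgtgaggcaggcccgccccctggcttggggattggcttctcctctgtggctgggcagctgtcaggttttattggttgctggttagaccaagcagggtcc
Acta2, chr19:34255374-34255623, minus strand: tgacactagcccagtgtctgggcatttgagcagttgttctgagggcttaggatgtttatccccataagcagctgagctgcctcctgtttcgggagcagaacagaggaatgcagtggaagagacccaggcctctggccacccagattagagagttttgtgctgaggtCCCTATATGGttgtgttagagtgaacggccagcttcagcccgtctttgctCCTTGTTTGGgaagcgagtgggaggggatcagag
Flnc, chr6:29432903-29433152, plus strand: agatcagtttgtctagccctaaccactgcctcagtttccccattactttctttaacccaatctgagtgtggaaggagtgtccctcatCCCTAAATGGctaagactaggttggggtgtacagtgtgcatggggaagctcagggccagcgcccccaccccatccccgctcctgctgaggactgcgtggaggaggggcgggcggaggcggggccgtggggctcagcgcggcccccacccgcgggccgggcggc

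In Acta2 the CArG-like stretches began 84 and 34 bases before the annotated start, in Lmod1 189 and 164 bases before it, and in Flnc 163 bases before it. The MCAT core, CATTCC on either strand, was found upstream of Lmod1, Acta2, Tagln2 and, at its other start, Flnc, in 4 of 13 windows against 12.6% of all windows. No motif of these kinds was found in the windows of Synpo2, Ppp1r12a and Csrp1. The matches therefore lay upstream of genes that read higher in D351, of genes that read lower and of genes under 2-fold. A match describes the letters and is not evidence of a bound site.

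**Figure D1:**
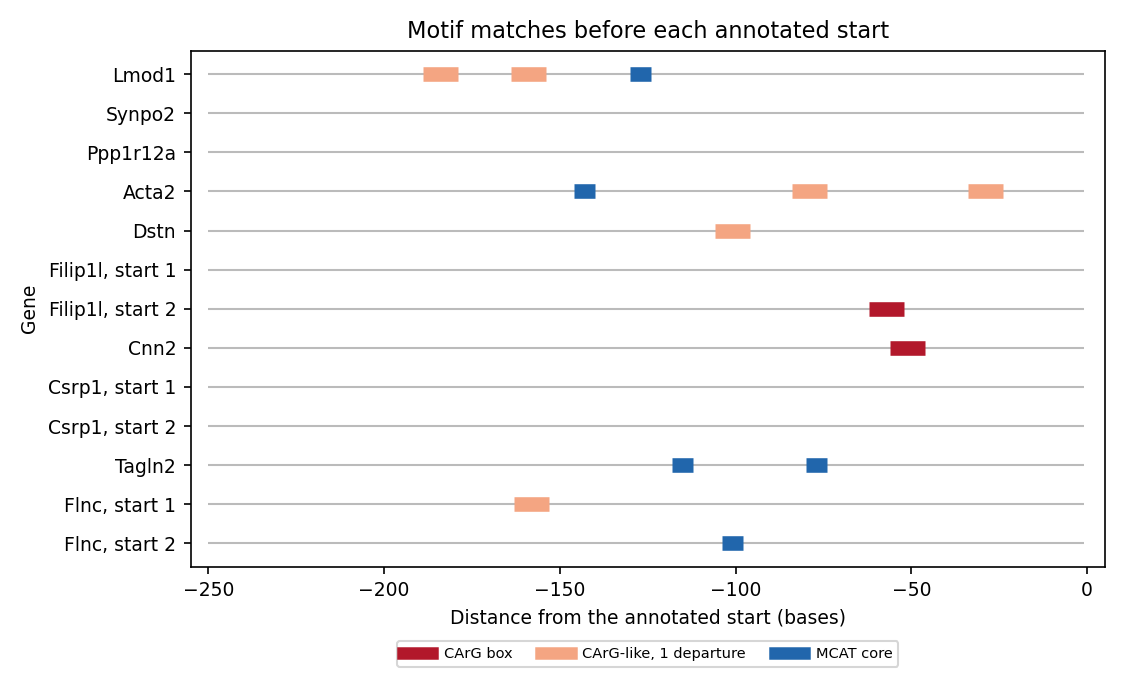
Motif matches in the 250 bases upstream of each annotated start, in bases from the start (x axis), for the 13 windows of the 10 genes (rows, highest log2 ratio at the top). Full CArG boxes appear only in the rows of Cnn2 and Filip1l, while Lmod1 and Acta2 each show 2 CArG-like stretches and 1 MCAT core.

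The deposited value of a probe set is a linear intensity without a stated unit. A floor was set at 6.4, the median over both arrays. Values that did not exceed it are called dim here and were set to 6.4 for the log2 ratios, so that a ratio against a dim value is a lower bound, and all log2 ratios are D351 minus D16. Of the 12 probe sets, 8 were above the floor in both clones, 3 were dim in D16 and 1 was dim in both. Negative controls for bacterial and yeast transcripts reached 11.2, and 8 of their 38 values exceeded the floor. A value above the floor, called measured here, is thus not proof that a transcript was present. A difference of 2-fold was used as a rule of size. Of all 4711 measured single-gene probe sets, 10% passed it towards higher values in D351 (473 probe sets) and 10% towards lower ones (471).

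Against this background, 11 probe sets of the set were measured, of which 5 passed 2-fold as higher in D351, 2 passed it as lower and 4 did not pass. By gene, 4 were higher, 2 lower and 4 did not pass. Among the last, Filip1l has only a bound, so its difference is not shown to be under 2-fold. The median log2 ratio of the 11 was 0.45, and that of all measured single-gene probe sets was -0.036. Under a 3-fold rule, 2 of the 11 were higher in D351 and 0 lower, against 4.37% and 3.54% of all measured single-gene probe sets. Since the genes were chosen with results of these arrays known, the counts describe them and are no test. Of the 6 probe sets above 20.7, the 75th percentile of all values, in both clones, 5 passed 2-fold (3 higher and 2 lower in D351), against 14.0% of 1886 such single-gene probe sets. This last count was chosen after the data had been seen.

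**Figure D2:**
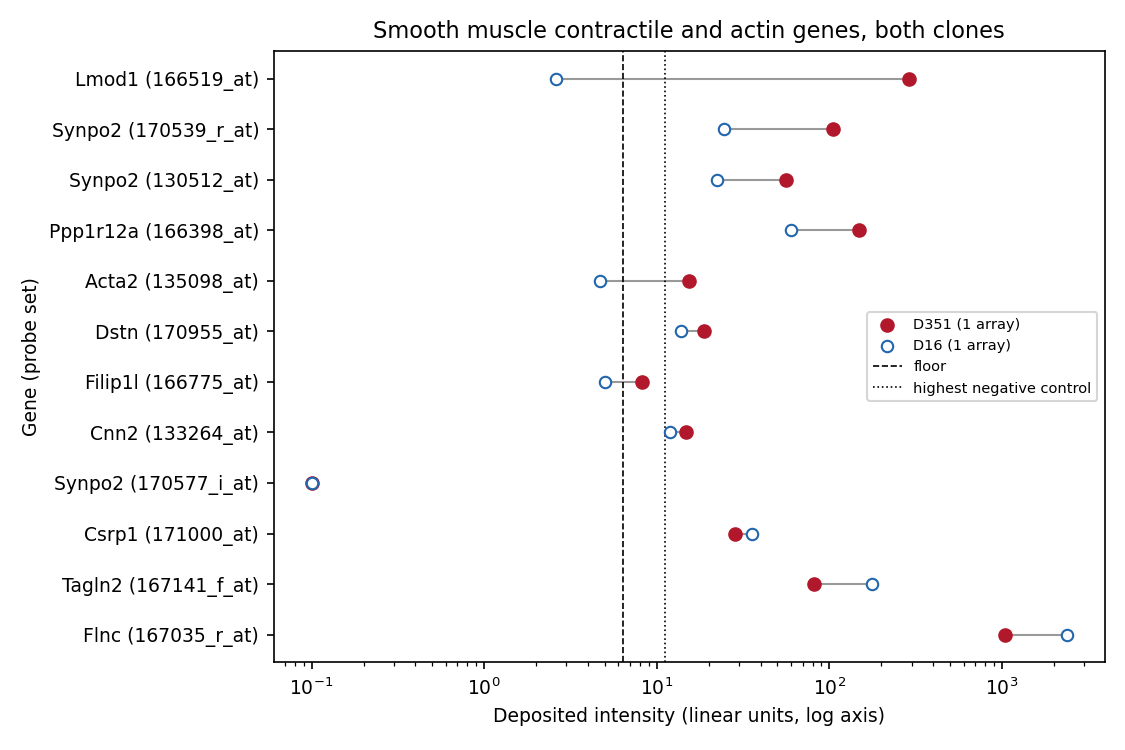
Deposited intensity (x axis, log scale, no unit) of each of the 12 probe sets in D351 (filled) and D16 (open), 1 array each, ordered by log2 ratio. The dashed line is the floor of 6.4 and the dotted line the highest negative control, 11.2; the D16 values of Lmod1, Acta2 and Filip1l lie left of the floor.

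The ratios also depend on how the arrays are brought to one scale. The mean without the lowest and highest 2% was 20.0 on both arrays, yet the 9 hybridization control probe sets (BioB, BioC, BioD and CreX) had a median log2 ratio of -0.67. Scaled to these controls, all single-gene probe sets shifted to a median of 0.59, and 27.6% passed 2-fold as higher in D351 against 3.53% as lower. In the set the split became 7 higher and 0 lower. Every direction below is thus one relative to the bulk of the probe sets. The control probe sets for cytoplasmic beta-actin, the non-muscle isoform, had log2 ratios of -0.38 (3' end), -0.072 (middle) and -0.11 (5' end). Their 3' to 5' ratio, a sign of RNA integrity, was 1.24 in D351 and 1.49 in D16.

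Among the filament builders, Lmod1 had the widest difference of the set. Leiomodin 1 nucleates actin filaments in smooth muscle cells. Its probe set 166519_at read 288 in D351 and 2.6 in D16, so the transcript was bright in D351 and not above background in D16. The difference came to at least 45.0-fold, a log2 bound of 5.49, and how large it is depends on the floor. Raising the floor to 20.7 left a bound of 13.9-fold. Since the D16 value lies within the negative control range, no exact fold is given. It passed 2-fold under all 7 alternative floors and scalings.

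Acta2 encodes smooth muscle alpha-actin, the thin filament actin of vascular smooth muscle. Probe set 135098_at read 15.4 in D351 and 4.7 in D16. Both values were low. The D16 value was below the floor, and the D351 value was not far above the highest negative control. The bound was at least 2.41-fold higher in D351, a log2 value of 1.27. With a pseudocount in place of the floor it was 0.97, under 2-fold, and with the floor at 20.7 both clones were dim. The direction towards D351 was shared with Lmod1, but only Lmod1 was well clear of background.

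Destrin (Dstn), which severs and depolymerises actin filaments, read 18.9 in D351 and 13.8 in D16 by probe set 170955_at. That is 1.37-fold higher in D351, under the rule of size. Scaled to the hybridization controls it was 2.21-fold higher.

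Of the cross-linking and anchoring proteins, Synpo2 and Flnc differed in opposite directions. Synaptopodin 2, also called myopodin, bundles actin and sits at Z-discs and dense bodies. Probe set 170539_r_at of Synpo2 read 105 in D351 and 24.7 in D16, a 4.26-fold difference. Probe set 130512_at read 55.9 in D351 and 22.5 in D16, a 2.48-fold difference. Both readings of Synpo2 thus lay towards D351, with log2 ratios of 2.09 and 1.31, and both passed 2-fold under all 7 alternative floors and scalings. The remaining one, 170577_i_at, read 0.1 in each clone and gave no ratio. Its i mark denotes a probe set with fewer probes than usual, and the r mark one chosen by relaxed rules. The gap between the readings of 2.09 and 1.31 was 0.78. For scale, log2 ratios of paired probe sets of 409 genes on these arrays scattered with an SD of 0.67 per probe set. A gap between 2 probe sets scatters more widely than that. The SD covers disagreement between probe sets on the same arrays and holds no error between arrays, RNA samples or clones.

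Filamin C, the muscle-enriched filamin that cross-links actin at Z-discs and membranes, went the other way. Probe set 167035_r_at of Flnc read 1048 in D351 and 2385 in D16, far above background in both clones. It was 2.27-fold lower in D351, a log2 ratio of -1.19. After lowess centring the ratio was -0.97, and after scaling to the hybridization controls -0.49, so the 2-fold call was lost under both while the sign stayed. Csrp1, whose LIM-domain product binds alpha-actinin and zyxin, read 28.3 in D351 and 35.5 in D16 by 171000_at. Its log2 ratio of -0.33 was small and turned to 0.37 after scaling to the hybridization controls. Filip1l, a protein related to the filamin-interacting protein FILIP1, read 8.2 in D351 and 5.0 in D16 by 166775_at. Neither value exceeded the highest negative control, and the bound of at least 1.28-fold says little about this gene.

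The calponin family bind along the thin filament through calponin-type repeats. Tagln2, the broadly expressed relative of the smooth muscle marker transgelin, read 82.0 in D351 and 177 in D16 by 167141_f_at. It was 2.16-fold lower in D351, a log2 ratio of -1.11, and -0.42 after scaling to the hybridization controls, under 2-fold. The f mark of this probe set means that its probes can match a family of related sequences, so the reading may include other transcripts. Cnn2, the calponin of non-muscle and smooth muscle cells, read 14.8 in D351 and 11.9 in D16 by 133264_at. That was 1.24-fold higher in D351, and 2.01-fold when scaled to the hybridization controls. Tagln2 and Cnn2, similar in their actin-binding parts, had ratios of opposite sign, but as reported only that of Tagln2 passed 2-fold.

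On the myosin side the set held Ppp1r12a, also known as MYPT1, which brings the phosphatase to myosin. Its probe set 166398_at read 149 in D351 and 60.2 in D16, above background in both clones. The difference was 2.47-fold, a log2 ratio of 1.30, and it passed 2-fold under all 7 alternative floors and scalings.

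**Figure D3:**
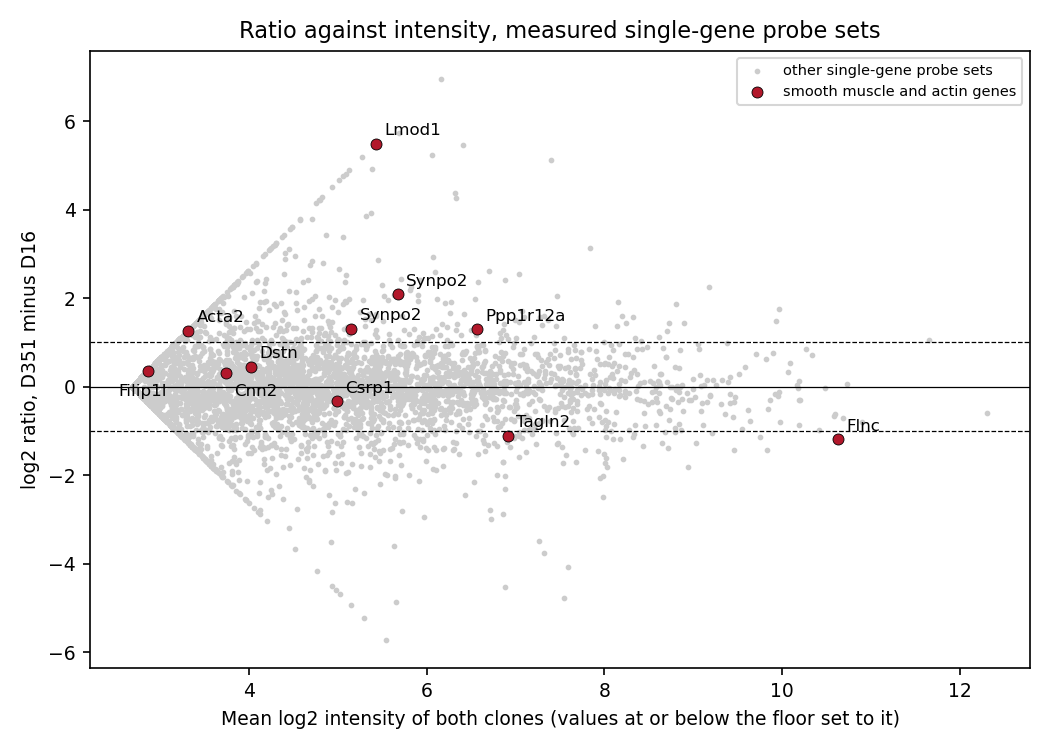
Log2 ratio, D351 minus D16 (y axis), against mean log2 intensity of both clones (x axis) for 4711 measured single-gene probe sets (grey) and the 11 measured probe sets of the set (red); dashed lines mark 2-fold. Lmod1 stands among the highest ratios at 5.49, while Flnc lies below the lower dashed line at -1.19.

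The probe sets also differed in the marks of their identifiers. Flnc and Tagln2, the genes lower in D351, were read only by marked probe sets. Of the 8 measured probe sets without a mark, 4 (Lmod1, Synpo2, Ppp1r12a and Acta2) passed 2-fold as higher in D351 and 0 as lower, against 10.3% and 9.79% of 2758 unmarked single-gene probe sets. The part that probe design has in the directions was not tested.

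**Figure D4:**
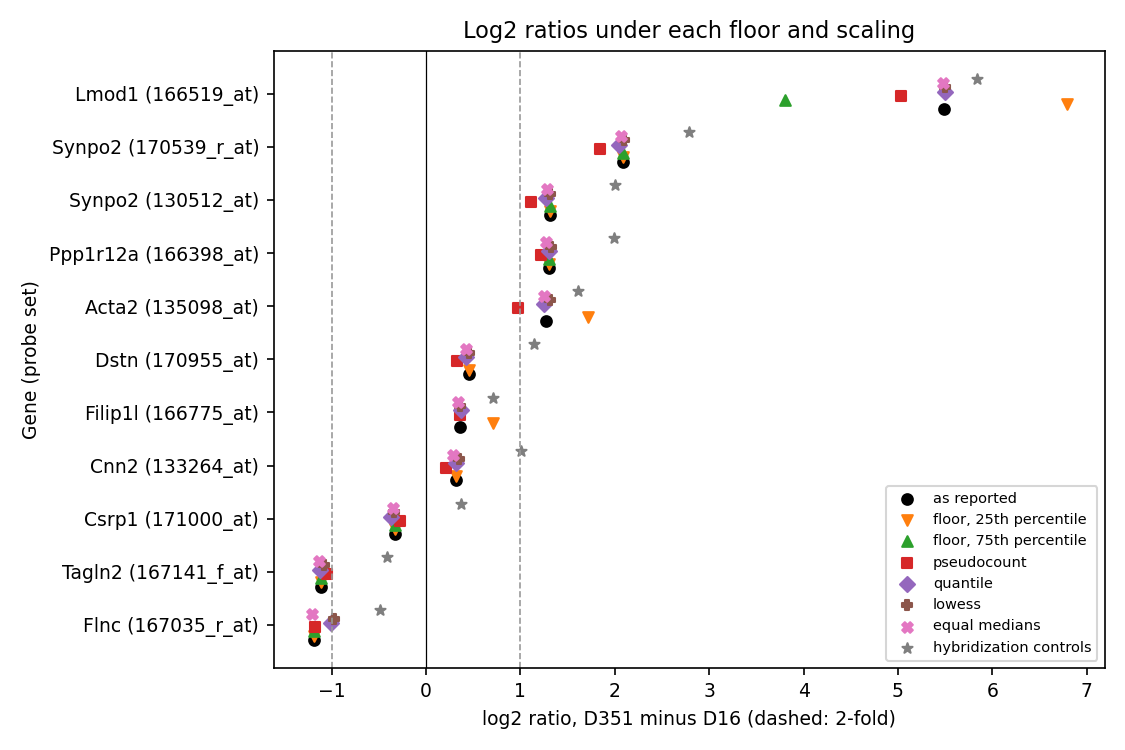
Log2 ratio, D351 minus D16 (x axis), of the 11 measured probe sets (rows) as reported and under 7 other floors and scalings (symbols); dashed lines mark 2-fold, and settings with both clones dim are left out. Lmod1, Synpo2 and Ppp1r12a stay right of the upper dashed line in every setting shown, while Csrp1 crosses 0 with the hybridization controls.

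Genes of the wider actin and contraction machinery passed 2-fold about as often as all measured genes, and the split depended on the setting. Of 165 further genes in 5 lists, 47 had a single-gene probe set and 29 were measured. Of the 29, 2 passed 2-fold as higher in D351 and 3 as lower, against 10.3% and 10.2% of 3934 measured genes, each by its brightest probe set. Their median log2 ratio was 0.0049, against -0.022 over all measured genes. Scaled to the hybridization controls, 8 were higher and 1 lower, against 28.5% and 3.59% of 3950 genes. With the floor lowered to 1.8 (the 25th percentile), 11 of 44 were higher and 5 lower, with a median of 0.31. That floor lies below the median negative control of 1.9, and the genes it added read within the negative control range. By the mean over a gene's probe sets 1 was higher and 5 lower. No share over all genes stands beside the counts of these last settings, so they are not read as a result about these genes.

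Actin assembly and turnover was the list with the most measured genes, 13 of the 29. Among these 13, 1 passed 2-fold towards D351 and 3 towards D16, against 10.3% and 10.2% of 3934 measured genes. The split turned to 3 towards D351 and 1 towards D16 when the hybridization controls set the scale. The shares over all genes were then 28.5% and 3.59%. These few calls are not read as a result about the list. Cap2, a cyclase-associated protein that binds actin monomers, read 80.6 in D351 and 12.8 in D16, 6.30-fold higher. The formin Diaph3, which elongates filaments, read 142 in D351 and 466 in D16, 3.29-fold lower. Another formin, Fhod1, read 56.5 in D351 and 114 in D16, 2.02-fold lower, just past the rule. Arpc4, a subunit of the Arp2/3 complex that nucleates branched filaments, read 5.2 in D351 and 15.0 in D16, at least 2.34-fold lower. With the floor at 20.7, Cap2 was at least 3.89-fold higher and Arpc4 was dim in both clones. Scaled to the hybridization controls, the log2 ratio of Diaph3 was -1.03 and that of Fhod1 was -0.32.

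Probe sets of a single gene could disagree here. The cofilin phosphatase gene Ssh1 read 119 in D351 and 97.0 in D16 by its brightest probe set, a ratio of 0.29. By a marked one it read 12.7 in D351 and 69.8 in D16, a ratio of -2.46. Ssh1 is outside the naming rule and was chosen after its values had been seen.

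Among cross-linkers and anchor proteins, 5 of 14 genes were measured. Their ratios were all positive, the median was 0.63 and 1 passed 2-fold. However, Ablim3 and Tln2 were dim in D16 and did not exceed the highest negative control in D351. Their ratios are bounds, and the median is the bound of Tln2. Pdlim7, a PDZ and LIM domain protein of actin bundles, read 167 in D351 and 77.5 in D16 by its brightest probe set, 2.15-fold higher. Its other probe set read 22.2 in D351 and 30.6 in D16, a ratio of -0.46. Of 2 measured thin filament genes neither passed 2-fold. Tagln3 read 67.3 in D351 and 70.2 in D16, and the tropomyosin gene Tpm1 read 10.2 in D351 and 13.4 in D16.

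None of the 6 measured genes of myosin and its phosphorylation passed 2-fold, though the ratios of Myh14 and Ppp1cc, dim in D16, are bounds. The regulatory light chain gene Myl12a read 895 in D351 and 657 in D16, a log2 ratio of 0.45, and 0.70 by its other probe set. Ppp1ca, a catalytic subunit of protein phosphatase 1, read 530 in D351 and 815 in D16, a ratio of -0.62. Ppp1r12a, at 1.30, thus differed by more than Myl12a and Ppp1ca. In the serum response factor programme, 3 of 4 genes were measured and 0 passed 2-fold. The cofactor genes Elk4 and Elk1 had ratios of -0.12 and 0.49. The coactivator gene Mrtfb, the third measured, read 2.9 in D351 and 12.5 in D16. It was at least 1.95-fold lower in D351, a bound that does not settle whether the difference exceeds 2-fold. Myocd, the smooth muscle coactivator, read 4.1 in D351 and 1.9 in D16, dim in both clones. Mrtfb and Myocd were named after their values had been seen.

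**Figure D5:**
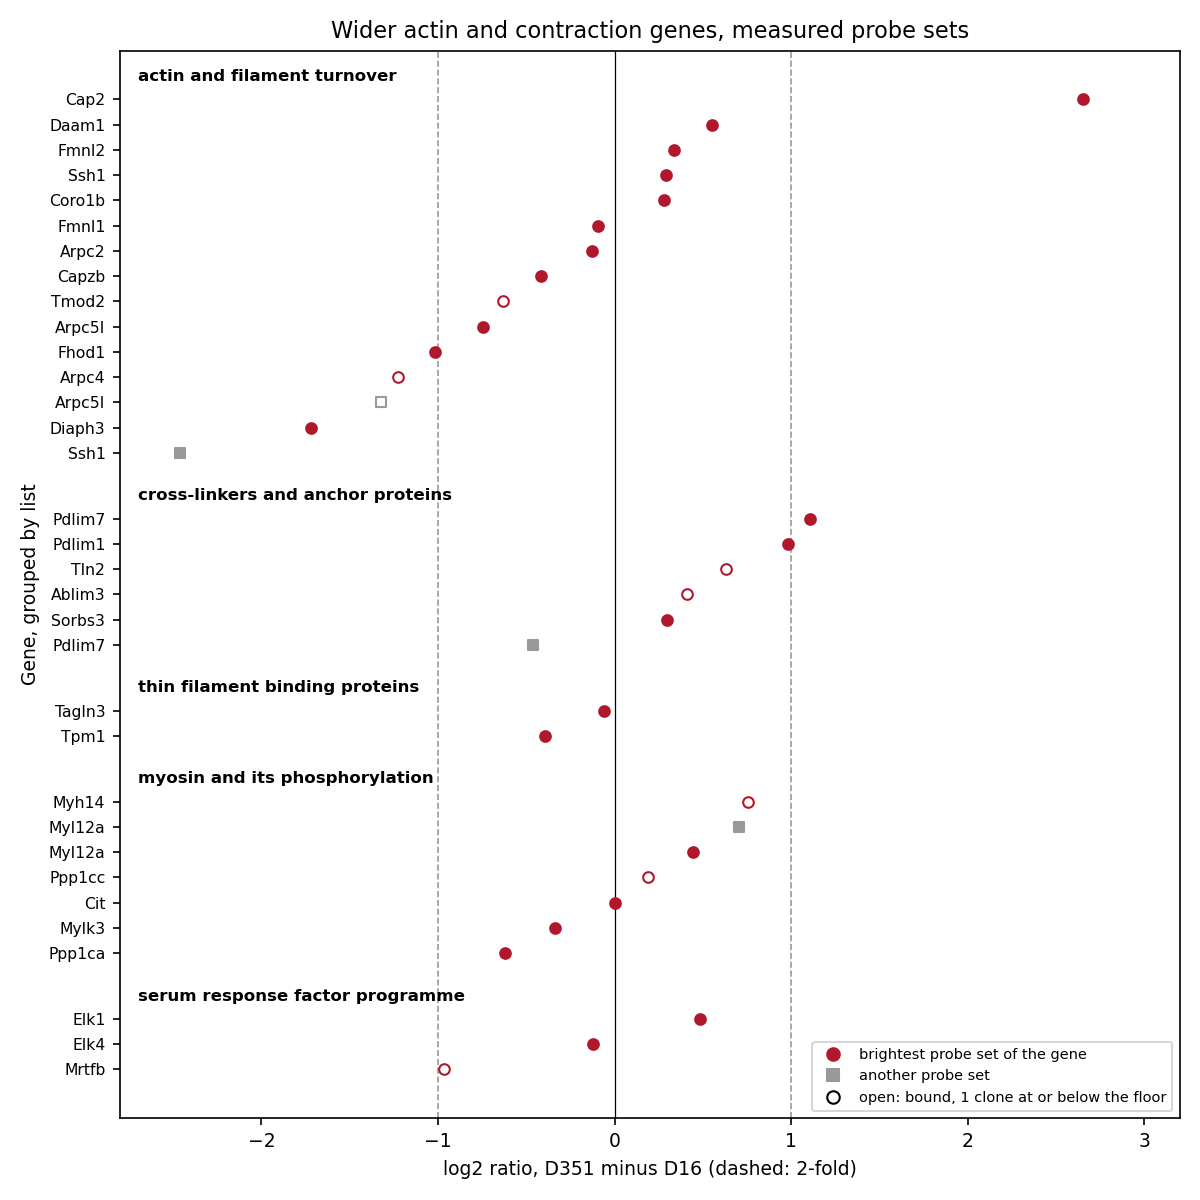
Log2 ratio, D351 minus D16 (x axis), of the measured probe sets of the wider genes, grouped in 5 lists (rows). Red circles are the brightest probe set of a gene, grey squares another, open symbols a bound with 1 clone at or below the floor; Cap2 at 2.65 and Diaph3 at -1.72 are the brightest-probe-set extremes.

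Some markers of other cell types also differed between the clones. For scale, 10.3% of 3934 measured genes passed 2-fold as higher in D351 and 10.2% as lower, each by its brightest probe set. Scaled to the hybridization controls, the shares were 28.5% and 3.59% of 3950 genes, and no marker count is given under that scaling. Of 22 embryonic fibroblast markers, the cell type of the feeder layer, 6 were on the array and 5 were measured. All 5 (Col5a1, Fbln2, Fgf10, Loxl1 and Mfap5) passed 2-fold as higher in D351, and the summed intensity of the 6 was 2406 in D351 and 673 in D16. Most of that sum came from Col5a1, at 1838 in D351 and 543 in D16 by a probe set with an f mark. Fbln2 was read by a probe set with an i mark. Col5a2 was near 0, at 0.2 in D351 and 0.7 in D16. Of 3 pericyte and mural markers, 2 were higher in D351 and 1 lower, with sums of 4698 in D351 and 2271 in D16 that came mostly from Bgn. Rgs4, the other higher one, read 13.8 in D351 and 6.8 in D16, the latter within the negative control range. Angpt1, the lower one, read 4.5 in D351 and 26.2 in D16. The 7 skeletal and cardiac markers summed to 336 in D351 and 148 in D16, mostly from Pvalb at 277 in D351 and 98.2 in D16. Of the 4 measured, Pvalb and Tbx5 passed 2-fold as higher in D351, Tnni1 had a log2 ratio of 0.21 and Ckm one of -0.88. Pvalb was read by a probe set with an i mark. Tnni1, at 10.4 in D351 and 9.0 in D16, did not exceed the highest negative control in either clone. Neither did Tbx5 in D16, at 10.1. The troponins Tnnt2 and Tnnt3 and the myosin gene Myh1 were dim in both. Of 5 endothelial markers, 3 were measured, 1 higher in D351 and 1 lower. Flt1 read 87.6 in D351 and 1.3 in D16 and made up most of the summed 103 in D351, against 26.3 in D16, while Egfl7 read 3.8 in D351 and 19.5 in D16. The haematopoietic marker Itga2b read 49.9 in D351 and 38.7 in D16. The part of other cells in the differences of Lmod1, Synpo2, Ppp1r12a and Acta2 was not tested, and in bulk RNA a change in cell numbers and a change in RNA per cell cannot be told apart. Of 11 mesoangioblast markers, 2 were on the array. Abcg2 read 46.9 in D351 and 77.0 in D16, and Kdr, at 9.5 in D351 and 1.6 in D16, did not exceed the highest negative control, so the labelled cell type could hardly be checked.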

How the data were processed

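Intensities of 11934 probe sets, 1 linear value each for D351 and D16, were used as deposited by the authors; their software is not given in the sources used here. Detection calls did not enter. The 66 manufacturer controls were set aside. Gene names came from the platform annotation (7717 probe sets with 1 gene, 150 with several, 4001 unnamed here). Values at or below the floor, the median of 6.4, were raised to it, and log2 ratios are D351 minus D16. With 1 array per clone there was no test, no replicate error and no standard deviation between replicates, so precision is limited by array number. All 10 genes were named with every probe set. From each wider list up to 4 genes past 2-fold in each direction were named, or the 2 brightest where none passed. The genes and lists were chosen with earlier results of these data known. Alternatives were other floors (1.8 and 20.7), a pseudocount of 6.4, quantile normalization, lowess centring (span 0.3), equal medians, scaling to the hybridization controls, a 3-fold rule, unmarked probe sets and the mean over a gene's probe sets. The code for the calls was run on simulated data with bright probe sets, changes well past 2-fold and little scatter. That run checked the code only and does not bear on dim probe sets or on ratios near 2-fold. Upstream windows came from RefSeq, GRCm38.p6. Tools were Python 3.11.15 with statsmodels 0.14.6, scipy 1.17.1, pandas 2.3.3, numpy 2.4.6 and matplotlib 3.10.9.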

Additional observations from a re-analysis of the deposited data

How the results depend on the processing

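The count of 5 probe sets at least 2-fold higher in D351 came to between 4 and 7 under the other floors, the pseudocount, the scalings and unmarked probe sets, and to 2 (Lmod1 and 1 of Synpo2) under a 3-fold rule. The 2 probe sets lower in D351 were fewer under 4 settings, with 1 after lowess centring and 0 when scaled to the hybridization controls, under the 3-fold rule and with unmarked probe sets. The median of the measured probe sets was 1.30 with the floor at 20.7, where 7 were measured, and 1.15 when scaled to the hybridization controls, against 0.45. For the wider genes, the 2 higher and 3 lower in D351 became 11 and 5 with the floor at 1.8, below the median negative control, where 44 were measured. They became 8 and 1 with the hybridization controls, 1 and 1 with the 3-fold rule, and 1 and 5 with the mean over probe sets. For the floor at 1.8, the 3-fold rule and the mean, no share over all genes stands beside these counts. Those counts are therefore not read as a result about the wider genes. Among 73 log2 ratios of single probe sets under the alternatives, 10 moved by more than 0.67, the SD between probe sets of the same gene. These were ratios scaled to the hybridization controls, a shift of 0.69 where both clones exceed the floor, and Lmod1 at both other floors. Of the 7 past 2-fold, 0 changed sign, though neither that shift nor another floor can turn the sign of a ratio past 2-fold. Beyond that shift and the fewer or more probe sets that a floor or mark leaves, the cause of the changed counts was not tested. No paired analysis was possible because each clone has 1 array and the result comes from no test. Signal over background limits Acta2, Filip1l, Cnn2 and Dstn most.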
